A study of Mus with 5 samples.

Results

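The cardiac and vascular connexins measured here were *Gja1* (ENSMUSG00000050953, the protein Cx43), *Gja4* (ENSMUSG00000050234, Cx37), *Gja5* (ENSMUSG00000057123, Cx40) and *Gjc1* (ENSMUSG00000034520, Cx45). They were chosen by these 4 Ensembl identifiers, and all 4 were present among the 12857 genes of the expression table. RNA was analysed from E14.5 mouse hearts without atria, that is, from ventricles and valves, of 2 genotypes, WT (2 pools) and *Nkx2.5* Cre/+*;Bmp2* tg/+ (3 pools, called transgenic here). Each pool combined 4 hearts, and the authors left out 1 further WT pool that did not group with the others. In transgenic hearts, Cre recombinase expressed from *Nkx2.5* excises a floxed stop sequence, after which the CAG promoter placed in *Rosa26* transcribes *Bmp2* cDNA together with IRES-eGFP. The transgene comes from 1 embryonic stem cell clone, and the labels name Cre for transgenic pools only. In the cross that the study describes for such embryos, mothers were homozygous for *Nkx2.5* Cre, so that littermates without the transgene carry this allele too. Whether the WT pools came from that cross was not given in the sources used here, and if they lacked the allele, its effects and those of the transgene cannot be told apart.

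Connexins are the subunits of gap junctions, the channels that join the cytoplasm of neighbouring cells and let ions and small molecules pass between them. In the heart they carry the electrical impulse from cardiomyocyte to cardiomyocyte, and in vessels they couple endothelial cells with each other and with smooth muscle. The connexins present differ between fast-conducting and slow-conducting myocardium and between arteries and veins. The comparison of transgenic with WT hearts asks how the mRNA of each connexin stood in ventricles of embryos that carried the activated *Bmp2* transgene.

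Expression is given as counts per 1000000 reads (CPM), and the values correspond to 10564780, 9442233 and 7931484 reads in transgenic pools 1, 2 and 3 and to 9351893 and 7427905 reads in WT pools 1 and 2. *Bmp2* mRNA, taken as a check of the labels, stood at 23.0, 27.1 and 23.3 CPM in transgenic pools and at 14.1 and 10.2 CPM in WT pools. Both WT pools were thus below all 3 transgenic pools. The replicates are pools of hearts, so that p-values measure the spread between pools and not between embryos.

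*Gja5* was the connexin called different between the genotypes, and it was lower in transgenic hearts. *Gja1*, *Gja4* and *Gjc1* were not called. In limma, with p-values adjusted by the method of Benjamini and Hochberg and a threshold of 0.05, 1 of the 4 connexins was called lower, a call made for 1.59% of all genes (205 of 12857). Calls in either direction were made for 2.82% of all genes (362, with 157 higher and 205 lower). An unadjusted p under that threshold was found for 2 connexins, *Gja5* and *Gjc1*, and for 17.7% of all genes (2275). The transgenic and WT pools did not overlap for the same 2 connexins. All transgenic pools were below both WT pools for *Gja5*, as for 18.0% of all genes (2320), and above both for *Gjc1*, as for 17.7% of all genes (2273). Neither arrangement of pools is therefore uncommon in these libraries. The median log2 fold change was −0.087 over the 4 connexins and 0.0045 over all genes. The number of genes called depended on the WT pools, since 45 genes were called without WT pool 1 (36 higher and 9 lower) and 43 without WT pool 2 (33 higher and 10 lower), so that higher genes then outnumbered lower ones. Without transgenic pool 2 it was 226 and with DESeq2 229. With limma without its variance trend it was 10, all of them higher, with 1846 genes at an unadjusted p under 0.05. The share of genes called lower, given beside *Gja5*, therefore depends on both WT pools and on the variance trend.

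*Gja1* encodes Cx43, the main gap junction protein of working ventricular myocardium, which is also made by epicardial, fibroblast and smooth muscle cells. It was measured at 541, 558 and 529 CPM in transgenic pools 1, 2 and 3 and at 520 and 555 CPM in WT pools 1 and 2. The groups overlapped, with WT pool 1 the lowest and transgenic pool 2 the highest of the 5 pools. Mean expression was 542.7 ± 14.8 CPM (SD, n = 3) in transgenic hearts and 537.3 ± 24.8 CPM (SD, n = 2) in WT hearts. There were 5660, 5199 and 4227 *Gja1* reads in transgenic pools and 4916 and 4139 in WT pools, and *Gja1* had the smallest standard error of the 4 connexins. The log2 fold change, on the scale of log2(CPM + 0.5), was 0.015 (SE 0.056), and limma did not call it (adjusted p = 0.924). The 95% confidence interval of the change ran from −6.92% to 9.68%. A log2 fold change of 0.22, or 1.16-fold, would have been needed for a call at this spread, and smaller changes of *Gja1* were not detectable here. The sign of so small a value was not fixed, because it was −0.045 after quantile normalization, −0.0040 after rescaling of the libraries to the same total, −0.0055 without transgenic pool 2 and −0.032 without WT pool 1.

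*Gja5* encodes Cx40, a large-conductance connexin of atrial myocardium, of the trabeculae and conduction system of the ventricles, and of arterial endothelium. It was measured at 107, 98.6 and 135 CPM in transgenic pools 1, 2 and 3 and at 162 and 168 CPM in WT pools 1 and 2. All 3 transgenic pools were below both WT pools, and transgenic pool 3 was the nearest to them. The highest transgenic pool fell short of the lowest WT pool by a difference of −26.3 CPM, while the transgenic pools spread over 36.8 CPM. Relative to the WT mean, the transgenic pools stood at 65.0%, 59.7% and 82.0%. Pool 3 was therefore farther from either of the other transgenic pools than from the nearest WT pool.

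The *Gja5* values rest on 1122, 918 and 1082 reads in transgenic pools and on 1529 and 1256 reads in WT pools. Exact Poisson 95% intervals, which cover counting error only, were 101 to 114, 92.3 to 105 and 127 to 144 CPM in transgenic pools 1, 2 and 3, and 154 to 170 and 159 to 178 CPM in WT pools 1 and 2. By counting error, both WT pools lay apart from every transgenic pool, and transgenic pool 3 lay apart from transgenic pools 1 and 2. The SD between transgenic pools was 5.41 times that which counting alone gives, against 1.06 times between WT pools. Separate pools often spread by more than counting gives, and the same ratio was 3.08 for *Gja1* between the WT pools.

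Mean *Gja5* expression was 113.7 ± 19.2 CPM (SD, n = 3) in transgenic hearts and 165.0 ± 4.74 CPM (SD, n = 2) in WT hearts. The log2 fold change was −0.55 (SE 0.095), with lower *Gja5* in 3 of 3 transgenic pools (limma, adjusted p = 0.00494). Expression was 0.684 times that of WT hearts, with a 95% confidence interval of 0.594 to 0.787. Among the 205 genes called lower, *Gja5* was number 58 by size, and the median log2 fold change of those genes was −0.41. A larger absolute log2 fold change than that of *Gja5* was found for 2.20% of all genes. In bulk RNA, fewer cells that express *Gja5* and less *Gja5* mRNA per cell cannot be told apart. The call was lost without WT pool 1 (log2 fold change −0.58, limma adjusted p = 0.143) and without WT pool 2 (−0.52, adjusted p = 0.159), where the remaining WT pool is assumed to vary like the transgenic pools. It was also lost when limma was run with no trend of the variance (adjusted p = 0.214) and in DESeq2 (adjusted p = 0.0925). Over 16 alternatives the adjusted p ranged from 9.71e-07 to 0.214. The lowest value came from limma with pool number as a block, where transgenic pool 3 has no WT partner.

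*Gjc1* encodes Cx45, a small-conductance connexin of the early heart tube that later marks the nodes and the atrioventricular conduction system. It was measured at 104, 114 and 107 CPM in transgenic pools 1, 2 and 3 and at 98.7 and 96.8 CPM in WT pools 1 and 2. The transgenic pools were all above both WT pools, but transgenic pool 1 stood close to WT pool 1. Mean expression was 108.4 ± 5.16 CPM (SD, n = 3) in transgenic hearts and 97.8 ± 1.39 CPM (SD, n = 2) in WT hearts, from 722 to 1092 reads per pool. The log2 fold change was 0.15 (SE 0.062), with higher values in every transgenic pool, and limma did not call it (adjusted p = 0.225). The interval of the change ran from 1.08% to 21.4%, and a log2 fold change of 0.24, or 1.18-fold, would have been needed for a call. A larger absolute log2 fold change than that of *Gjc1* was found for 34.8% of all genes.

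*Gja4* encodes Cx37, which is made mainly by endothelial cells, above all those of arteries, and by the endocardium. It was measured at 20.5, 15.0 and 18.8 CPM in transgenic pools 1, 2 and 3 and at 22.3 and 18.9 CPM in WT pools 1 and 2. The groups overlapped, since transgenic pool 1 was above WT pool 2, and transgenic pool 2 was the lowest of all. Mean expression was 18.1 ± 2.78 CPM (SD, n = 3) in transgenic hearts and 20.6 ± 2.41 CPM (SD, n = 2) in WT hearts. *Gja4* had the fewest reads of the 4 connexins, 214, 140 and 150 in transgenic pools and 211 and 141 in WT pools. Its log2 fold change was −0.19 (SE 0.13), and limma did not call it (adjusted p = 0.476). The interval of the change, from −27.7% to 6.36%, was the widest of the 4, and a change of 1.42-fold would have been needed for a call. Single pools moved this estimate, which was −0.066 without transgenic pool 2, −0.073 without WT pool 1 and −0.31 without WT pool 2, with no call in any of these fits.

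**Figure D1:**
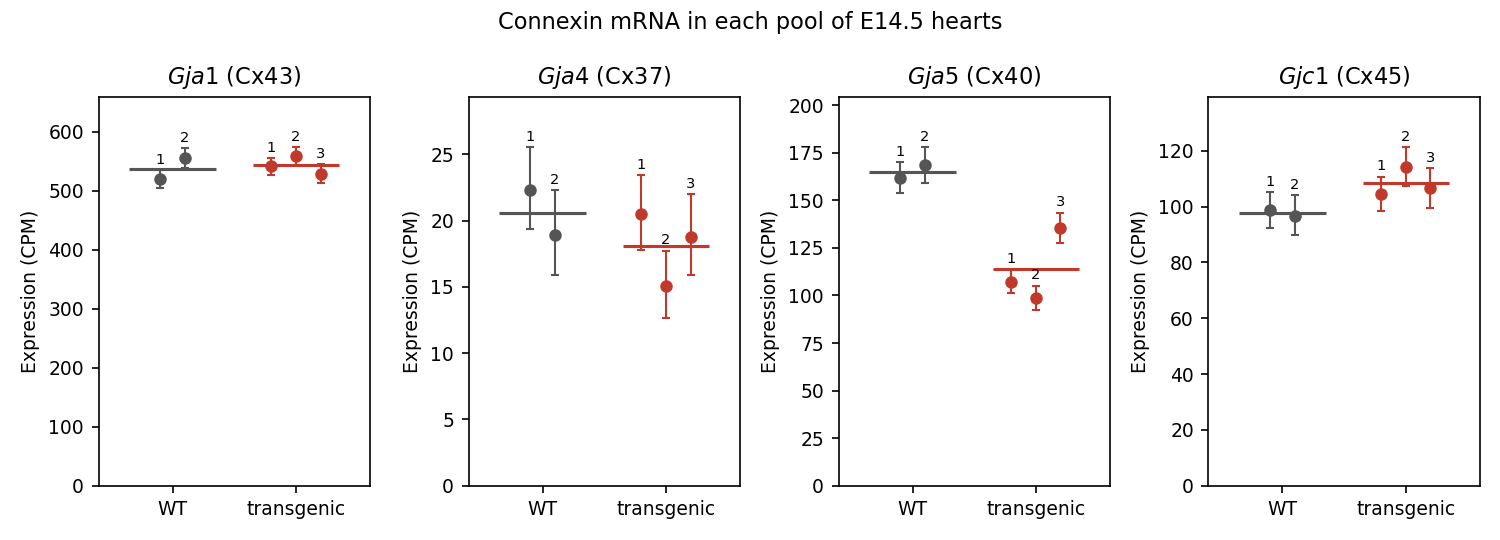
Expression (CPM, vertical axis from 0) of the 4 connexins in each WT pool (grey, n = 2) and transgenic pool (red, n = 3), numbered by pool, with exact Poisson 95% intervals as error bars and the group mean as a horizontal line. The transgenic pools of *Gja5* (98.6 to 135 CPM) lie below both WT pools (162 and 168 CPM), those of *Gjc1* lie above both WT pools, and those of *Gja1* and *Gja4* overlap them.

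Within a pool, the share of connexin reads taken by each gene does not depend on how the libraries were scaled. These shares are compared here across pools and not between genes, because longer transcripts yield more reads. *Gja5* took 13.9%, 12.5% and 17.1% of the reads of the 4 connexins in transgenic pools 1, 2 and 3 and 20.1% in each WT pool. Exact binomial 95% intervals were 13.1% to 14.6%, 11.8% to 13.3% and 16.2% to 18.1% in transgenic pools, and 19.2% to 21.1% and 19.1% to 21.1% in WT pools. The share was lower in every transgenic pool than in both WT pools, and no transgenic interval reached a WT interval. The difference between the mean shares was −5.59 percentage points, with an SD of 2.37 over the transgenic pools and 0.0528 over the WT pools.

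*Gja1* took from 67.0% (transgenic pool 3) to 71.0% (transgenic pool 2) of the connexin reads in transgenic hearts, against 64.8% and 66.1% in WT pools. *Gjc1* took at least 13.5% in each transgenic pool, against 12.3% and 11.5% in WT pools. Both shares were higher in every transgenic pool than in either WT pool. Since the 4 shares add up to 100%, a lower share of *Gja5* raises the others, and the CPM of *Gja1* overlapped between the groups. The share of *Gja4* overlapped between the groups, at 2.65%, 1.91% and 2.38% in transgenic pools and at 2.78% and 2.25% in WT pools. Summed over the 4 genes, connexin mRNA was 773, 786 and 789 CPM in transgenic pools, against 802 and 839 CPM in WT pools. The sum was thus lower in each transgenic pool, with means of 782.9 ± 8.31 CPM (SD, n = 3) and 820.6 ± 25.7 CPM (SD, n = 2).

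The log2 ratio of *Gja5* to *Gjc1*, which sets a connexin of fast conduction against a connexin of slow conduction, was 0.039, −0.21 and 0.34 in transgenic pools 1, 2 and 3 and 0.71 and 0.80 in WT pools 1 and 2. The ratio was lower in all 3 transgenic pools, and its difference of −0.70 between the group means was the largest of the 6 pairs of connexins. *Gja5* was also lower relative to *Gja1* (a difference of −0.56) and relative to *Gja4* (−0.36) in every transgenic pool. For *Gja5* and *Gja4* the groups nearly touched, with a log2 ratio of 2.82 in transgenic pool 3 and 2.83 in WT pool 1, and the difference was −0.23 without transgenic pool 1 and −0.21 without WT pool 2. *Gjc1* was higher relative to *Gja1* in every transgenic pool (a difference of 0.13, or 0.071 without WT pool 2). In an exact permutation test over pools, two-sided, each of these 4 ratios gave p = 0.2, which is the smallest p that 3 pools against 2 can give, so that none of them could pass the threshold. The ratio of *Gja4* to *Gja1* (−0.20, exact permutation p = 0.6) and that of *Gja4* to *Gjc1* (−0.34, exact permutation p = 0.4) overlapped between the groups. The former was −0.060 without transgenic pool 2, −0.041 without WT pool 1 and −0.37 without WT pool 2, and the latter was −0.18 without transgenic pool 2.

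In the RefSeq annotation of GRCm38.p6 the 4 connexin genes lie on 4 chromosomes. *Gja1* spans positions 56377300 to 56390419 of chromosome 10, and *Gja5* spans 97032402 to 97053634 of chromosome 3. *Gja4* lies at 127311420 to 127314039 of chromosome 4. *Gjc1* spans 102799477 to 102819686 of chromosome 11. *Gja5* alone overlaps another annotated gene, a long non-coding RNA that shares 6979 bases of its span (97046656 to 97092785). Whether reads were counted by strand was not given in the sources used here, so that *Gja5* reads and reads of this RNA could be mixed where their exons meet.

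Cx40 marks trabecular myocardium and the ventricular conduction system, and markers of both were compared beside *Gja5*. Of the symbols of these and other lists, 21 of 116 could be paired with identifiers, all through the study's own list of genes that differ in these libraries, so that their directions are not independent evidence. *Bmp10*, a growth factor of trabecular cardiomyocytes, was measured at 15.2, 10.7 and 17.4 CPM in transgenic pools and at 33.4 and 32.2 CPM in WT pools (log2 fold change −1.18, limma adjusted p = 0.000626). *Sema3a*, a guidance factor of trabeculae, had a log2 fold change of −0.86 (limma adjusted p = 0.00919), so that both of the 2 paired trabecular markers, of 5 listed, were called lower, as were 1.59% of all genes. Having been paired through a list of changed genes, they say little of the trabecular list as a whole. In limma without the variance trend, 0 genes were called lower. Neither of these calls was therefore kept there, nor that of any gene called lower below. That fit called 10 genes higher, against 157 in the main fit, so that most higher calls were lost too. Whether any gene called higher below kept its call there is not given here. The sum of *Bmp10* and *Sema3a* was 36.4, 24.2 and 39.9 CPM in transgenic pools, against 71.0 and 63.3 CPM in WT pools. On average, *Sema3a* gave more CPM to this sum than *Bmp10*. Like *Gja5*, both markers had their lowest value in transgenic pool 2 and their highest transgenic value in pool 3. Of 4 conduction markers, 2 were paired, and *Etv1*, a transcription factor of fast-conducting myocardium, was lower (log2 fold change −0.44, limma adjusted p = 0.00816). *Hcn4*, a pacemaker channel, was not called (−0.45, limma adjusted p = 0.0738), and the sum of both was 40.4, 39.7 and 43.0 CPM in transgenic pools, against 57.6 and 55.0 CPM in WT pools. The part of trabecular and conduction cells in the *Gja5* result was not tested.

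Cx40 and Cx37 are also connexins of the endothelium, and 3 of 10 endothelial markers were paired. The sum of *Cdh5*, *Tie1* and *Kdr* was 506, 426 and 499 CPM in transgenic pools, against 603 and 590 CPM in WT pools. *Cdh5* gave the most CPM to this sum. *Kdr* (log2 fold change −0.46, limma adjusted p = 0.00286) and *Tie1* (−0.31, adjusted p = 0.0277) were lower in transgenic hearts, and *Cdh5* was not called (−0.25, adjusted p = 0.0563). The part of endothelial cells in the *Gja4* and *Gja5* values was not tested.

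Of 13 markers of arterial endothelium, where Cx37 and Cx40 are enriched, 3 were paired. The receptor gene *Notch1* was lower (log2 fold change −0.35, limma adjusted p = 0.0104), the netrin receptor gene *Unc5b* was higher (0.34, adjusted p = 0.0225), and *Notch4* was not called (−0.34, adjusted p = 0.0621). The sum of these 3 markers, led by *Unc5b*, was 367, 327 and 315 CPM in transgenic pools, against 322 and 309 CPM in WT pools. This sum mainly follows *Unc5b* and does not stand for arterial endothelium, since the other 10 markers were not analysed here. Of 6 smooth muscle and pericyte markers, cells in which Cx43 and Cx45 are found, 3 were paired. *Myh11* (−0.71, limma adjusted p = 0.0204) and *Rgs5* (−0.48, adjusted p = 0.00890) were lower. *Pdgfrb*, which had the most CPM of these 3 markers, was not called (−0.24, adjusted p = 0.0519). Their sum was 138, 138 and 157 CPM in transgenic pools, against 188 and 185 CPM in WT pools, below WT in each transgenic pool, unlike *Gja1* and *Gjc1*. The part of arterial and smooth muscle cells in the connexin values was not tested.

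Cx40 is a connexin of atrial myocardium as well, and the atria had been removed. Of 6 atrial markers 1 was paired, *Myl7*, an atrial myosin light chain gene that the embryonic ventricle also expresses. It was measured at 653, 869 and 617 CPM in transgenic pools and at 384 and 373 CPM in WT pools (log2 fold change 0.90, limma adjusted p = 0.000166). All transgenic pools were above both WT pools for *Myl7* and below both for *Gja5*. Of 6 markers of epicardium and fibroblasts, cells that make Cx43, 1 was paired, and *Tbx18* was higher at 87.3, 88.1 and 86.2 CPM in transgenic pools against 65.3 and 69.7 CPM in WT pools (0.37, limma adjusted p = 0.00476). The part of these cells in the *Gja1* and *Gja5* values was not tested.

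Several T-box and GATA factors act on the promoters of cardiac connexin genes, and 4 of 14 listed factors were paired, which took a place on the study's list of changed genes. These 4 were called higher in transgenic hearts, as were 157 of all 12857 genes, and the other 10 were not analysed here. *Tbx3*, a repressor of *Gja1* and *Gja5* in slow-conducting myocardium, was measured at 17.2, 18.8 and 17.4 CPM in transgenic pools and at 11.7 and 10.1 CPM in WT pools (log2 fold change 0.69, limma adjusted p = 0.00547). *Gata4*, an activator of cardiac genes, had a log2 fold change of 0.23 (limma adjusted p = 0.0411). *Tbx20*, a regulator of chamber myocardium that also stands among the 3 paired markers of compact myocardium, had one of 0.41 (adjusted p = 0.00162). The other compact markers, *Hey2* (0.24, limma adjusted p = 0.0267) and *Mycn* (0.34, adjusted p = 0.0478), were higher too, against *Gja5*, which is sparse in compact myocardium. The sum of the 4 factors, led by *Tbx20*, was 1339, 1343 and 1263 CPM in transgenic pools, against 980.4 and 1059 CPM in WT pools, and that of the 3 compact markers was 1195, 1204 and 1134 CPM against 877.8 and 941 CPM. The part of these factors, and of compact myocardium, in the *Gja5* result was not tested.

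Cx43 sits with desmosomal proteins at the intercalated disc, and 1 of 16 genes listed for this structure was paired and is given here. *Dsp*, which encodes desmoplakin, was measured at 732, 668 and 684 CPM in transgenic pools and at 866 and 856 CPM in WT pools (log2 fold change −0.31, limma adjusted p = 0.00740). *Dsp* was lower in every transgenic pool, while *Gja1* overlapped between the groups. Of 15 other connexin genes, 3 pannexin genes, 8 cardiomyocyte markers, 6 red blood cell markers and 4 macrophage markers, 0 were paired, and they were not analysed here.

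**Figure D2:**
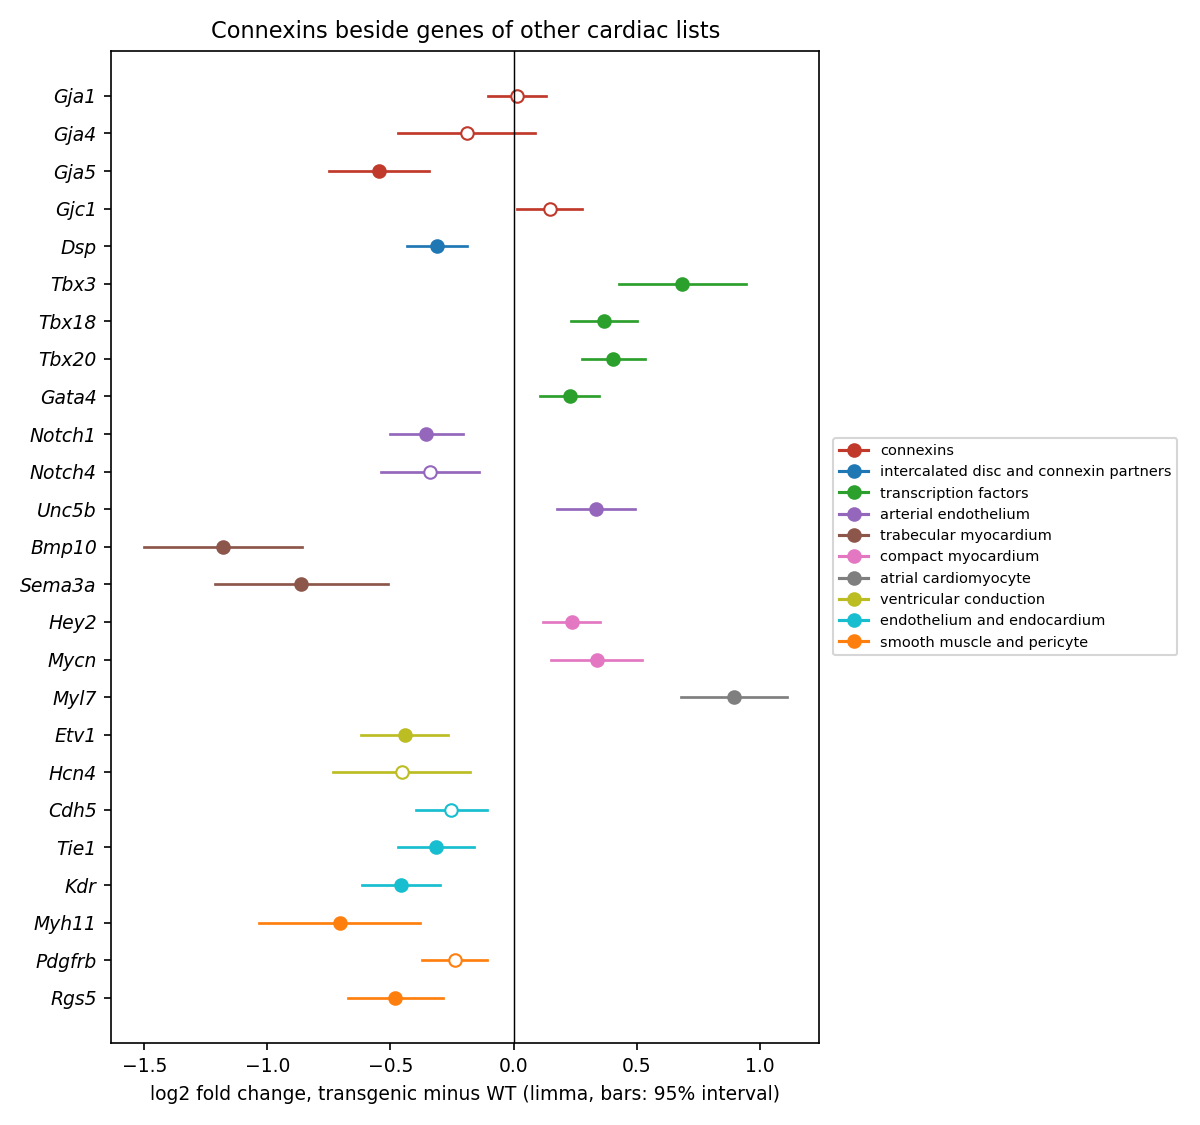
Log2 fold changes (horizontal axis, transgenic minus WT, limma on log2(CPM + 0.5) of 3 and 2 pools) of the 4 connexins and of the paired genes of the other lists, with 95% confidence intervals as bars, colours for lists, filled points for an adjusted p at or under 0.05 and open points for the others. *Tbx18* and *Tbx20*, which also stand in another list, are drawn once, under transcription factors, so that epicardium and fibroblasts have no colour of their own. *Gja5* (−0.55) lies between *Bmp10* (−1.18) and *Dsp* (−0.31), while *Gja1* (0.015) and *Gjc1* (0.15) lie near 0.

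The patterns of other genes over the 5 pools were set beside those of the connexins by the root mean square difference of log2 values centred on each gene's mean. Names were known for 376 of the 10089 genes with a mean of at least 10 CPM, nearly all from the study's list of changed genes, so that patterns without a difference between the genotypes are scarce among them. For *Gja5*, the named genes most alike were *Inpp4b* (a difference of 0.043), *Galnt2* (0.047) and *Pde1a* (0.050), and these were also numbers 1, 2 and 3 among all 10089 genes. *Inpp4b*, a gene of phosphoinositide metabolism, was measured at 7.94, 7.09 and 9.75 CPM in transgenic pools and at 12.4 and 13.4 CPM in WT pools. Like *Gja5*, it was lowest in transgenic pool 2 and nearest to WT in transgenic pool 3. *Pde1a*, a phosphodiesterase gene, had the same order at 17.7, 16.1 and 21.8 CPM in transgenic pools and at 24.6 and 26.0 CPM in WT pools.

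For *Gja4*, the named gene most alike was the endothelial cadherin gene *Cdh5* (a difference of 0.090), at 239, 204 and 236 CPM in transgenic pools and at 275 and 263 CPM in WT pools. Both genes had their highest value in WT pool 1 and their lowest in transgenic pool 2, and 74 of the 10089 genes were as close to *Gja4*. *Tspan18* (0.096) and *Col5a1* (0.097) followed for *Gja4*. For *Gjc1* the named genes most alike were *Phldb2* (0.035), *Anp32a* (0.037) and *Stip1* (0.046), and 203 of all genes were as close as *Phldb2*. For *Gja1* they were *Gjc1* (0.081), *Phldb2* (0.093) and *Anp32b* (0.095), but 3686 of all genes were as close as *Gjc1*. For *Gja1*, which was not called, a list of changed genes offers few close patterns, and these names say little of its pattern.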

How the data were processed

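Total RNA of pooled E14.5 ventricles and valves was sequenced as single-end polyA libraries. The authors removed adaptors with cutadapt, quantified genes with RSEM and Bowtie over GRCm38 and an Ensembl gene set, and used edgeR. The authors deposited CPM computed on scaled library sizes for 12857 genes, with low genes already removed. Pool names identified the columns, of which 0 went unused. Within a library, 100% of values were whole multiples of 1 read (tolerance 0.01 read), and division by that step gave the reads. In every pool the step was first read from the spacing of low values and then refined over higher values. The Poisson and binomial intervals cover only counting error, and duplicates from PCR were not separable.

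Because CPM values are not counts, log2(CPM + 0.5) was compared between genotypes by limma (version 3.58.1, under R 4.3.3; eBayes with the trend of the variance on), two-sided and with no covariates. p-values were adjusted over all genes (Benjamini-Hochberg, threshold 0.05). A filter of at least 1 CPM in at least 2 libraries removed no gene, and all 4 connexins passed it. Fold changes on this scale understate those of low genes. Ratios of connexins were compared with exact permutation tests. Other steps used scipy 1.17.1, pandas 2.3.3 and numpy 2.4.6 under Python 3.11.15, with matplotlib 3.10.9 for plots. The fits were tested on simulated data.

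Alternatives included leaving out each pool, blocking on pool number, edgeR 4.0.16 (quasi-likelihood and exact tests) and DESeq2 1.42.0 on the reads, equal library totals, quantile normalization, limma with no variance trend, a minimum mean of 5 CPM or no filter, and a pseudocount of 0.1 or 1. edgeR's quasi-likelihood test called 398 genes.

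The genes named are the 4 connexins, the paired members of the lists, and for each connexin the 3 named genes with a mean of at least 10 CPM that were most like it. *Bmp2* was added as a check of the labels, and the choice of *Id2* and *Smad6* followed a look at their values. A further 2 listed genes are not reported here. The connexins and lists were chosen with earlier results of these data known. Symbols were taken from the study's list of changed genes, which pairs 405 of them with identifiers of the table; its fold changes and p-values were not used. Positions are from RefSeq. Transcript lengths and sequences were not used here. Where CPM or reads of different genes are set side by side, they therefore do not rank the mRNA levels of these genes.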

Additional observations from a re-analysis of the deposited data

How the results depend on the processing

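Of the 16 alternatives, that with no filter repeats the main fit, as the filter removed no gene. Blocking on pool number gives the same log2 fold changes as leaving out transgenic pool 3. Over these 16 alternatives, which are therefore not all separate checks, *Gja5* was lower in all and called in 12. Its log2 fold change was −0.55 in limma without the variance trend and −0.54 in DESeq2, both without a call, and −0.68 to −0.45 with each pool left out, where the call was lost without either WT pool. *Gja4* (−0.31 to −0.066) and *Gjc1* (0.11 to 0.17) kept their direction and were never called. *Gja1* changed sign after quantile normalization (−0.045), after rescaling to the same total (−0.0040) and when pools were left out (−0.032 to 0.062), with no call. The number of genes called was 10 in limma without the trend (1846 at an unadjusted p under 0.05), 229 in DESeq2, and 43 to 464 with each pool left out, against 362. Rescaling to the same total gave 125 higher and 251 lower genes, against 157 and 205. The ratios of connexins kept their direction in all 7 alternatives run. With the pool number as a replicate block, 655 genes were called, and values were 0.034 for *Gja1*, −0.22 for *Gja4*, −0.68 for *Gja5* and 0.16 for *Gjc1*. Pools with the same number are not known to share more than that number. The correlations of their deviations from the group means were −0.026 and −0.050. These cannot show whether such pools were prepared together, since the 2 WT pools deviate in mirror image. The block drops transgenic pool 3, which has no WT partner. With 1 WT pool left, it is assumed to vary like the transgenic pools. The cause of these changes was not tested. Read depth was lowest for *Gja4* among the 4 connexins, at 140 to 214 reads per pool.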

Other observations

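A pair of genes known as targets of BMP signals, *Id2* and *Smad6*, was chosen after the values were seen. *Id2*, an inhibitor of basic helix-loop-helix factors and a direct BMP target, was measured at 143, 145 and 123 CPM in transgenic pools and at 70.2 and 69.8 CPM in WT pools (log2 fold change 0.96, limma adjusted p = 1.26e-06). *Smad6*, an inhibitor that BMP signals induce, was measured at 56.4, 65.7 and 49.9 CPM in transgenic pools and at 33.6 and 33.8 CPM in WT pools (log2 fold change 0.75, limma adjusted p = 0.000626). For both genes, all transgenic pools were above both WT pools.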
